A study of Mus musculus with 10 samples.

Results

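The genes examined here encode the core of the inflammasome in mouse macrophages: the sensors Nlrp3, Nlrc4, Aim2 and Mefv, the adaptor Pycard (ASC), the caspases Casp1 and Casp4 (caspase-11 of the mouse), and Gsdmd, the pore former that caspases cleave. They were the probe sets annotated with these 8 symbols, out of 19505 symbols on 22206 probe sets, and each of the 8 had 1 probe set. Expression was measured in bone marrow-derived macrophages (BMDMΦs) from male C57BL/6J mice aged 8 to 12 weeks, grown in medium conditioned by L929 cells as a source of M-CSF. They spent 48 h in 1 of 5 conditions, each with 2 arrays (10 Clariom S arrays in all). These were conditioned medium (CM) of Snai1-depleted cancer-associated fibroblasts (KO CAF CM), CM of CAFs that kept Snai1 (WT CAF CM), IFNγ at 100 units/mL, IL4 at 10 ng/mL, and complete medium with no stimulus. The CAFs came from PyMT mammary tumors and were kept in culture as cells established earlier, then starved of serum to make the CM, and how many CAF preparations the CM came from is not given in the sources used here. No array of plain starvation medium was analysed here, so CAF products and the change of medium cannot be told apart in a comparison with not stimulated cells. The sample descriptions attach WT and KO to the macrophages, whereas the sample titles attach them to the CAFs, and the titles were followed. Whether both arrays of 1 condition trace to different mice or dishes is not in the labels, so p-values reflect the spread between these arrays, which may be technical.

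An inflammasome is a cytosolic complex that a sensor builds on meeting danger. NLRP3 responds to potassium efflux and many kinds of cell damage, NLRC4 to bacterial flagellin and secretion needles bound by NAIP proteins, AIM2 to cytosolic DNA, and pyrin, the product of Mefv, to the inactivation of RhoA. Most sensors recruit ASC, which clusters caspase-1. Caspase-1 then matures IL-1β and IL-18, and it cleaves gasdermin D, whose fragments open pores in the plasma membrane. Caspase-11 binds bacterial LPS directly and cleaves gasdermin D too. Macrophages express some of these parts constantly, while others, among them Nlrp3 and Il1b, are known to need a priming signal through NF-κB, and Casp4 is induced by interferons. The arrays measured RNA only, and none of these activities.

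All values are log2 signals, and each gene is compared with itself between conditions, since probe sets differ in brightness. A difference counts as called when limma gave it an adjusted p under 0.05 over all probe sets. Without a detection call, silent genes and dim ones look the same here. Array medians lay between 5.57 and 5.71, and replicates of a condition correlated with Pearson's r of 0.9936 to 0.9952 across probe sets. Where an array was left out as a check, the array that remained in its condition was taken to vary like those of the other conditions. All 7 macrophage markers measured were above the array median in every condition, with Csf1r at 16.86 to 17.28 and Lyz2 at 17.82 to 18.48, neither of them called against not stimulated cells or between the CMs. The other 5 moved: Adgre1 was called higher with KO CAF CM (1.05) and WT CAF CM (0.96), Itgam higher with WT CAF CM (0.98), Fcgr1 higher with IFNγ (1.48) and lower with IL4 (-1.70), and Mertk lower with KO CAF CM (-2.52) and IL4 (-1.04), and Cd14 is described with the priming receptors. Mertk had 9.40 and 9.77 with KO CAF CM, against 11.26 and 11.37 with WT CAF CM (WT minus KO 1.73, limma adjusted p = 0.00315), and 12.39 and 11.81 in not stimulated cells. The 7 fibroblast markers measured stayed at or below 6.56 on all arrays, and 0 of 7 was called in any comparison with not stimulated cells or between the CMs. In the mast cell, basophil and eosinophil list, 1 of 8 markers, Siglecf, was called lower with each CM and with IFNγ (5.27 to 6.31, against 9.40 and 8.63 in not stimulated cells), and in the lymphocyte list Cd4 was called lower in all 4 conditions, with 8.55 to 8.96 in the CM arrays, 9.15 and 9.34 with IFNγ, 8.75 and 9.71 with IL4, and 10.62 and 11 in not stimulated cells. Klrb1c was the other lymphocyte marker of 8 that was called, lower with IFNγ (-1.16) and IL4 (-1.17).

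RefSeq promoter windows (GRCm38.p6, 250 bases before to 50 after a start) were found for 7 of the 8 genes, with 2 starts each for Nlrp3 and Casp4. The stretches below are the 250 bases upstream of the start, read 5′ to 3′ on the gene's strand. They are shown because Nlrp3, Mefv and Casp4 were the genes that both CMs raised, and Aim2 held the only match to a motif of the list searched. Capitals mark κB matches, and Mefv had none:
Nlrp3: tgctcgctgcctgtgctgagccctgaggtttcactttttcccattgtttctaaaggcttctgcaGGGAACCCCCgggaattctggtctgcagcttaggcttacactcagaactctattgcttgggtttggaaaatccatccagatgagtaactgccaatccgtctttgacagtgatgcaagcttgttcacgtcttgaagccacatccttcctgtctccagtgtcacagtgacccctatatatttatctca
Aim2: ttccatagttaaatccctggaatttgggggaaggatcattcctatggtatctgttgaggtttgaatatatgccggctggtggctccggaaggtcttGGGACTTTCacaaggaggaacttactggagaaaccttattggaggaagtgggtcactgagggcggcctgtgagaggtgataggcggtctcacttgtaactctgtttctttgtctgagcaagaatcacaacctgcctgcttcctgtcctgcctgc
Mefv: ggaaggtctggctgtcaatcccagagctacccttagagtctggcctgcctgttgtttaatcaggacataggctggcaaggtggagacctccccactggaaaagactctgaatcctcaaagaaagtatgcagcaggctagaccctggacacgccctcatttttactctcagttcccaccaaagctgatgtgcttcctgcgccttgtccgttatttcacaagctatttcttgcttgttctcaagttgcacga
Casp4: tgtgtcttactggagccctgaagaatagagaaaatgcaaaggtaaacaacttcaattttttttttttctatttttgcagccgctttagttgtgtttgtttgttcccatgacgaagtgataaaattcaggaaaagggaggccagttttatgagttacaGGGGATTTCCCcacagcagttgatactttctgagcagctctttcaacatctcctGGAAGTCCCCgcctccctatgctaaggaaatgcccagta
These lie at chr11:59541319-59541568 (plus strand, the more distal of 2 starts), chr1:173420354-173420603 (plus strand), chr16:3718125-3718374 (minus strand) and chr9:5308599-5308848 (plus strand, the more distal of 2 starts). On both strands, the searches covered the interferon-gamma-activated site TTCNNNGAA (in 8.3% of all 32851 windows), the core of the interferon-stimulated response element GAAANNGAA (8.56%), a κB motif GGGANTTTC (1.11%) and the cAMP response element TGACGTCA (1.79%). Only 1 match was found among the 9 windows of these genes, the κB motif of Aim2, from base 154 to base 146 upstream of the start. The degenerate κB consensus, added after the sequences were seen, was in 8.46% of all windows and matched those of Nlrp3 and Casp4. In Casp4 it matched at bases 93 to 83 and, on the other strand, at bases 39 to 30 upstream. In Nlrp3 it matched at bases 186 to 177 of the distal start. The GGGANTTTC motif is a shorter relative of the consensus. A match describes the sequence only, and binding was not measured. Casp1 and Casp4 are neighbours on chromosome 9, with starts 10332 bases apart.

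CM of CAFs raised 2 of the 4 sensors and 1 caspase. Against not stimulated cells, Mefv, Nlrp3 and Casp4 rose in macrophages given either CM, and none of the 8 was called lower. With KO CAF CM, 3 of 8 were called higher, where 6.83% of all probe sets were, and 0 were called lower, where 8% were. With WT CAF CM, 3 of 8 were called higher, against 4.08% of all probe sets, and 0 lower, against 4.47%. The median difference of the 8 genes was 0.49 for KO CAF CM, and 0.77 for WT CAF CM, beside -0.01 and -0.03 over all probe sets. Both comparisons use the same not stimulated arrays. IFNγ raised another group, the sensor Aim2, the adaptor, both caspases and Gsdmd: 5 of 8 were called higher (5.38% of all probe sets) and 0 lower (6.68%), with a median of 0.91 beside -0.02 over all probe sets. IL4 lowered Nlrp3 and Nlrc4 and raised Pycard: 1 of 8 was called higher (1.66%) and 2 lower (2.38%), with a median of -0.20 beside 0 over all probe sets.

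**Figure D1:**
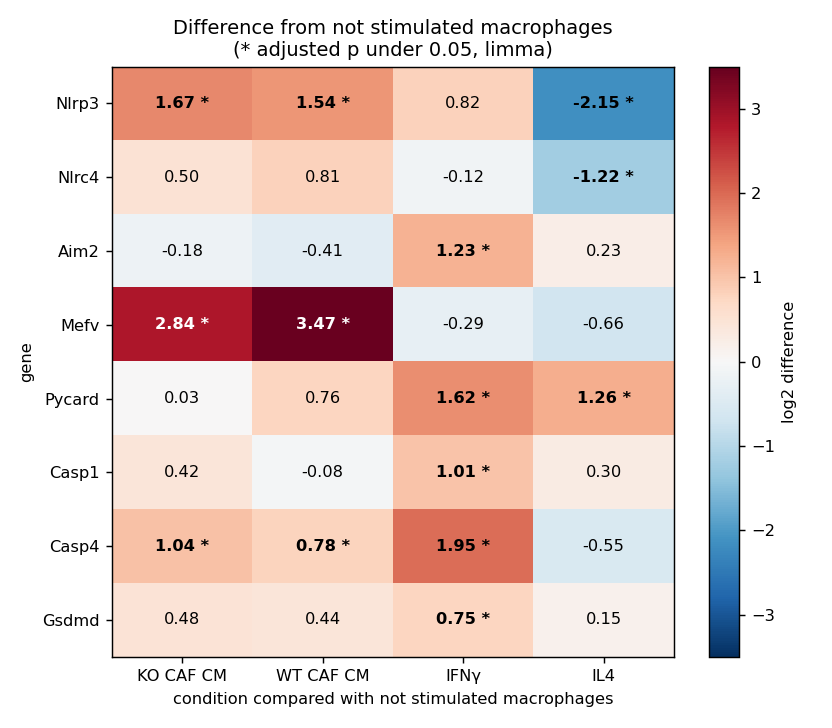
Log2 difference of each of the 8 genes (rows) from not stimulated macrophages in each of 4 conditions (columns), with n = 2 arrays per condition; an asterisk marks an adjusted p under 0.05 in limma. Mefv stands highest with both CMs (2.84 and 3.47), and Casp4 has the largest difference with IFNγ (1.95).

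Mefv showed the widest range. It read 9.47 and 8.57 in the KO CAF CM arrays, 9.35 and 9.95 with WT CAF CM, 5.73 and 6.07 with IFNγ, 5.58 and 5.47 with IL4, and 6.16 and 6.21 in not stimulated cells. The 4 CM arrays were thus well above the other 6, which lay between 5.47 and 6.21. Its difference from not stimulated cells was 2.84 with KO CAF CM (SE 0.29, 7.14-fold, adjusted p = 4.65e-05, limma) and 3.47 with WT CAF CM (SE 0.29, 11.0-fold, adjusted p = 1.58e-05). Neither cytokine gave a call: the differences were -0.29 with IFNγ (adjusted p = 0.662) and -0.66 with IL4 (adjusted p = 0.302). Outside the CMs, Mefv lay near the array medians, where silent and dim genes look the same. The sizes of its differences are therefore uncertain, and a fall with a cytokine could hardly be seen. In the order of levels, the 2 CMs did not differ beyond their spread, nor did not stimulated cells from IFNγ or IFNγ from IL4, and the gap from KO CAF CM to not stimulated cells was the only step called.

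Mefv is expressed in granulocytes and monocytes as well as in macrophages, so markers of those cells were read beside it. Ly6c2, a marker of classical monocytes, had 11.80 and 10.71 with KO CAF CM, 12.89 and 13.06 in WT CAF CM arrays, 9.95 and 8.99 with IFNγ, 5.67 and 4.96 with IL4, and 7.40 and 7.22 in not stimulated cells. It was called higher with both CMs (3.95 and 5.67, limma adjusted p = 2.95e-05 and 3.03e-06). Ccr2, another monocyte marker, went the other way in the CM arrays: 5.11 and 6.13 with KO CAF CM and 8.04 and 7.87 with WT CAF CM, against 9.82 and 9.68 in not stimulated cells. Plac8, the third monocyte marker measured, lay between 4.24 and 4.80 in the CM arrays, against 4.65 and 4.48. With IFNγ all 3 monocyte markers were called higher, with Ccr2 at 11.94 and 11.95 and the summed log2 level at 12.16 to 12.31. Of the 9 neutrophil markers measured, 2 were called higher with each CM, and 1, Ltf, lower with KO CAF CM. S100a8 had 12.18 and 11.35 with KO CAF CM and 10.23 and 12.88 with WT CAF CM, against 7.76 and 6.6 in not stimulated cells. Camp, a granule gene, had 4.40 and 4.40 with KO CAF CM and 4.07 and 4.51 with WT CAF CM, against 3.30 and 3.46. The other granule genes of the list, Mpo, Elane, Ngp and Ltf, lay between 3.48 and 5.35 in the 4 CM arrays and between 4.27 and 5.72 in the not stimulated ones. Summed on the linear scale, the neutrophil list had log2 levels of 11.52 to 12.25 with KO CAF CM and 10.51 to 12.95 with WT CAF CM, against 8.67 to 8.91 in not stimulated cells, and the monocyte list had 10.79 to 11.82 and 12.94 to 13.10, against 9.95 to 10.10. In the CM arrays, S100a8 and Ly6c2 made up most of these sums. The part of other cells in the Mefv difference was not tested. In such bulk RNA, more cells of a type and more RNA per cell cannot be told apart.

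**Figure D2:**
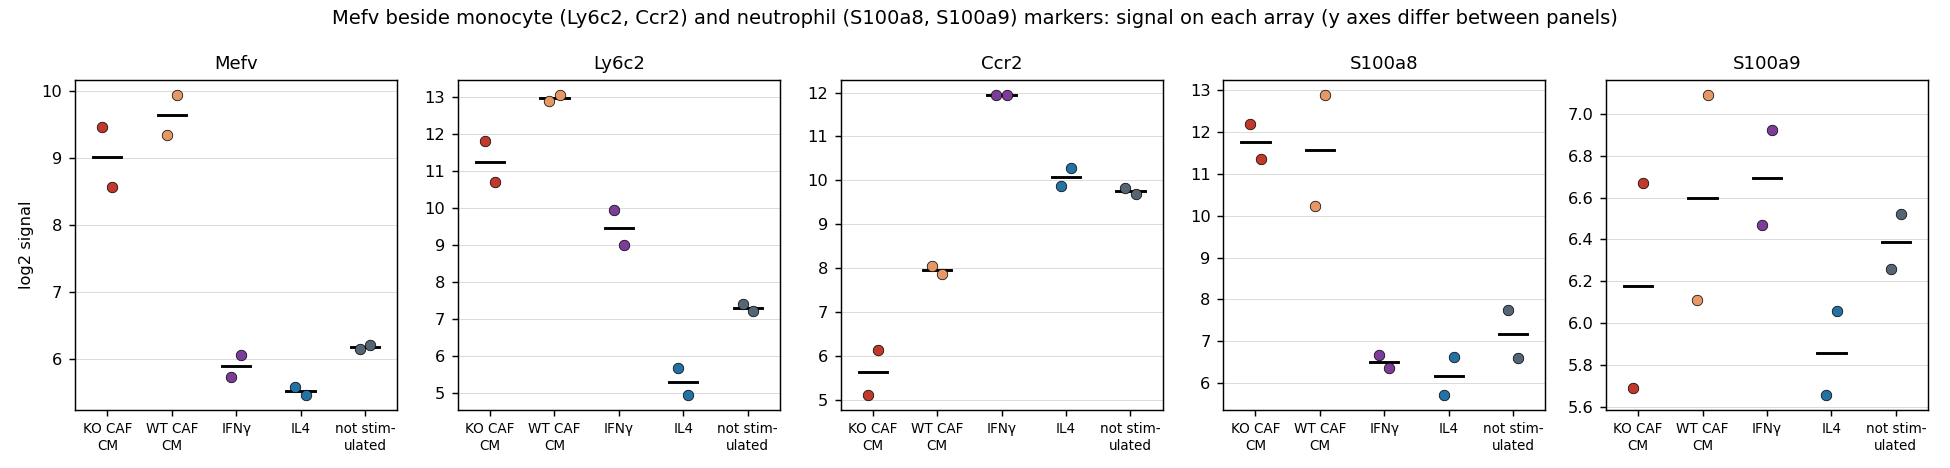
Log2 signal of Mefv, of the monocyte markers Ly6c2 and Ccr2 and of the neutrophil markers S100a8 and S100a9 on each of the 10 arrays (points) with the mean of each condition (bars, n = 2); y axes differ between panels. Mefv, Ly6c2 and S100a8 are higher in the 4 CM arrays than in the not stimulated ones, whereas Ccr2 is lower and S100a9 overlaps.

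Nlrp3 was the second sensor raised by the CMs. Its signal was 10.81 and 10.57 with KO CAF CM, 10.24 and 10.88 in WT CAF CM arrays, 9.33 and 10.34 with IFNγ, 6.73 and 7.01 with IL4, and 9.24 and 8.80 in not stimulated cells. The CM arrays were above the not stimulated ones, the IL4 arrays were the lowest of all, and the IFNγ arrays, which differed by 1.01 between themselves, spanned the range from the not stimulated to the WT CAF CM arrays. The difference from not stimulated cells was 1.67 with KO CAF CM (SE 0.32, 3.18-fold, adjusted p = 0.00420, limma) and 1.54 with WT CAF CM (SE 0.32, 2.91-fold, adjusted p = 0.0108). IL4 lowered it by a log2 difference of -2.15 (SE 0.32, 4.44-fold, adjusted p = 0.00288). With IFNγ the difference of 0.82 was not called (adjusted p = 0.151). Down the order of levels from KO CAF CM through WT CAF CM and IFNγ to not stimulated cells, no neighbours differed beyond their spread, and only the last step, to IL4, was called. The WT CAF CM call rested on single arrays: leaving out its replicate 2 brought the difference to 1.22 (adjusted p = 0.116), and leaving out not stimulated replicate 2 brought it to 1.32 (adjusted p = 0.0975). Without IFNγ replicate 1, the IFNγ difference was 1.32 and passed (adjusted p = 0.0277).

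Nlrc4 had a smaller range. It gave 8.54 and 9.31 with KO CAF CM, 8.99 and 9.48 in WT CAF CM arrays, 8.14 and 8.49 with IFNγ, 6.95 and 7.47 with IL4, and 8.52 and 8.34 in not stimulated cells. Only the IL4 arrays stood apart, below the other 8. IL4 lowered Nlrc4 by a log2 difference of -1.22 (SE 0.29, 2.33-fold, adjusted p = 0.0370, limma). That call ended when any IL4, IFNγ or not stimulated array was left out, with differences of -0.96 without IL4 replicate 1 (adjusted p = 0.251), -1.48 without IL4 replicate 2 (0.0550), -1.22 without either IFNγ array (0.0516), -1.13 without not stimulated replicate 1 (0.214) and -1.31 without replicate 2 (0.118), and it also ended under quantile normalization (-1.13, 0.0570). The differences with the CMs were 0.50 for KO CAF CM (adjusted p = 0.334) and 0.81 for WT CAF CM (adjusted p = 0.126). With IFNγ the difference was -0.12 (adjusted p = 0.882). Among neighbours in the order WT CAF CM, KO CAF CM, not stimulated, IFNγ and IL4, only the step from IFNγ to IL4 was called (1.11, adjusted p = 0.0254).

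Aim2, the DNA sensor, responded to IFNγ. It read 9.64 and 9.85 with KO CAF CM, 9.70 and 9.32 in WT CAF CM arrays, 11.15 and 11.15 with IFNγ, 10.22 and 10.07 with IL4, and 9.94 and 9.90 in not stimulated cells. The 2 IFNγ arrays were the highest, and the remaining 8 lay between 9.32 and 10.22. The difference with IFNγ was 1.23 (SE 0.19, 2.35-fold, adjusted p = 0.00106, limma). The CMs gave -0.18 with KO CAF CM (adjusted p = 0.663) and -0.41 with WT CAF CM (adjusted p = 0.270), and IL4 gave 0.23 (adjusted p = 0.675). The step from IFNγ to IL4, next in order, was called (1.01, adjusted p = 0.00375), and the steps below it, to not stimulated, KO CAF CM and WT CAF CM, were not. Beside the IFNγ calls, 2 of 6 dendritic cell markers were called higher with IFNγ: Clec9a had 13.45 and 12.99, against 4.41 and 4.20 in not stimulated cells, and Xcr1 had 6.21 and 6.47, against 3.73 and 3.58. Of the markers not called, Flt3 and Zbtb46 lay at 3.47 to 3.89 with IFNγ. The summed log2 level of the list was 13.05 to 13.49 with IFNγ, against 7.64 to 7.83 in not stimulated cells. The 3 monocyte markers moved with IFNγ too: Ly6c2 by 2.16 (adjusted p = 0.00247), Ccr2 by 2.20 (adjusted p = 0.000307) and Plac8, at 7.45 and 6.78, by 2.55 (adjusted p = 4.65e-05). The part of either list in the IFNγ differences was not tested.

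**Figure D3:**
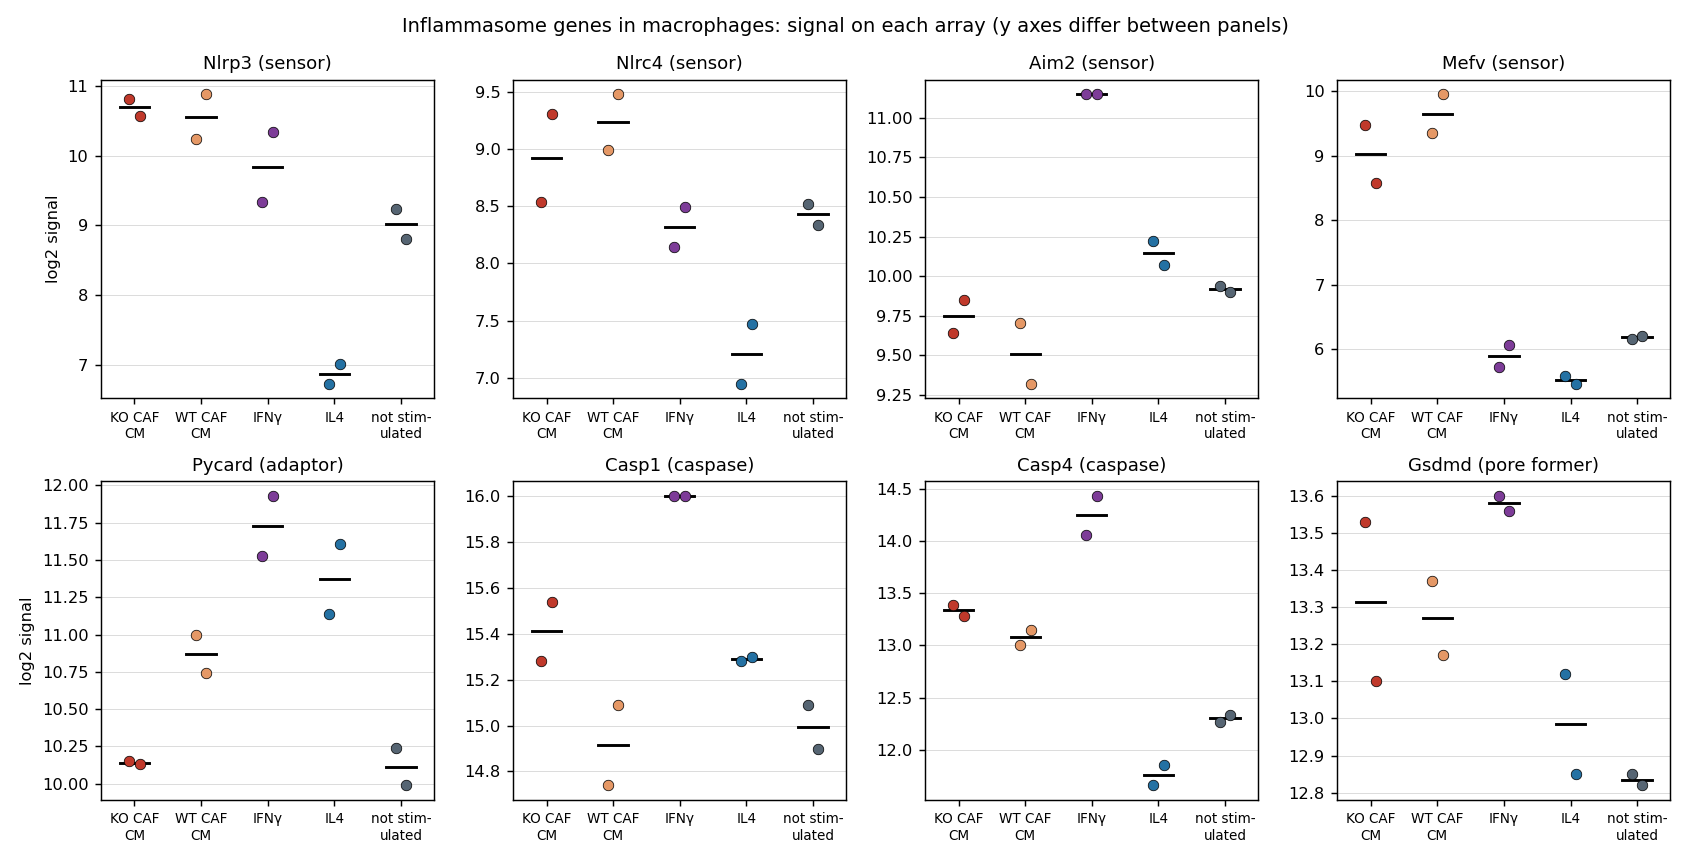
Log2 signal of the 8 genes on each of the 10 arrays (points) with the mean of each condition (bars, n = 2); y axes differ between panels. The CM arrays are highest for Mefv (8.57 to 9.95), and the IFNγ arrays are highest for Aim2, Casp1 and Casp4.

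Pycard, the adaptor that links most sensors to caspase-1, differed from the sensors in that both cytokines raised it. Its signal was 10.15 and 10.13 with KO CAF CM, 11.00 and 10.74 in WT CAF CM arrays, 11.53 and 11.93 with IFNγ, 11.14 and 11.61 with IL4, and 10.24 and 9.99 in not stimulated cells. Both KO CAF CM arrays fell between the 2 not stimulated ones, while the WT CAF CM arrays lay above those and below all arrays with a cytokine. The difference from not stimulated cells was 1.62 with IFNγ (SE 0.22, 3.06-fold, adjusted p = 0.000460, limma) and 1.26 with IL4 (SE 0.22, 2.40-fold, adjusted p = 0.00761). The 2 cytokines were not called different (0.36 for IFNγ minus IL4, adjusted p = 0.432). With KO CAF CM the difference was 0.03 (adjusted p = 0.968), and with WT CAF CM it was 0.76 and just missed the threshold (adjusted p = 0.0619). It passed with WT CAF CM when dim probe sets were left out (adjusted p = 0.0490) and with trend and robust moderation (0.0385). The IL4 call ended without IL4 replicate 2 (1.03, adjusted p = 0.0741) or not stimulated replicate 2 (1.14, 0.0743).

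Casp1 moved little outside IFNγ. It had 15.28 and 15.54 with KO CAF CM, 14.74 and 15.09 in WT CAF CM arrays, 16 and 16 with IFNγ, 15.28 and 15.30 with IL4, and 15.09 and 14.90 in not stimulated cells. The IFNγ arrays were above all others, and the WT CAF CM arrays overlapped the not stimulated ones. The difference was 1.01 with IFNγ (SE 0.19, 2.01-fold, adjusted p = 0.00434, limma), 0.42 with KO CAF CM (adjusted p = 0.209), -0.08 with WT CAF CM (adjusted p = 0.894) and 0.30 with IL4 (adjusted p = 0.546). No pair of neighbours in the order IFNγ, KO CAF CM, IL4, not stimulated and WT CAF CM was called, the widest step being 0.59 from IFNγ to KO CAF CM (adjusted p = 0.0680).

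Casp4, which encodes the LPS-binding caspase-11, rose in 3 of the 4 conditions. It read 13.39 and 13.28 with KO CAF CM, 13 and 13.15 in WT CAF CM arrays, 14.06 and 14.43 with IFNγ, 11.66 and 11.85 with IL4, and 12.27 and 12.33 in not stimulated cells. No array of one condition overlapped with those of another, and how often that holds over all probe sets was not counted. The difference was 1.04 with KO CAF CM (SE 0.19, 2.05-fold, adjusted p = 0.00315, limma), 0.78 with WT CAF CM (SE 0.19, 1.71-fold, adjusted p = 0.0265) and 1.95 with IFNγ (SE 0.19, 3.85-fold, adjusted p = 3.43e-05). With IL4 it was -0.55 and not called (adjusted p = 0.170). IFNγ was called above KO CAF CM (0.91, adjusted p = 0.00648), the 2 CMs did not differ beyond their spread, and WT CAF CM was called above not stimulated cells. The WT CAF CM call ended without WT CAF CM replicate 1 (0.85, adjusted p = 0.0700) or replicate 2 (0.70, 0.174), and without not stimulated replicate 1 (0.75, 0.139) or replicate 2 (0.81, 0.101).

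Gsdmd, which encodes the pore former, had the smallest range of the 8. It gave 13.53 and 13.10 with KO CAF CM, 13.37 and 13.17 in WT CAF CM arrays, 13.60 and 13.56 with IFNγ, 13.12 and 12.85 with IL4, and 12.85 and 12.82 in not stimulated cells. The IFNγ arrays were the highest and the not stimulated arrays the lowest, 1 IL4 array being level with them. The difference was 0.75 with IFNγ (SE 0.20, 1.68-fold, adjusted p = 0.0315, limma), and it ended as a call without either IFNγ array (0.73 without replicate 1, adjusted p = 0.145, and 0.77 without replicate 2, 0.124) or either not stimulated array (0.76 and 0.73, both 0.129). The CMs gave 0.48 for KO CAF CM (adjusted p = 0.156) and 0.44 for WT CAF CM (adjusted p = 0.264), and IL4 gave 0.15 (adjusted p = 0.816). No neighbours in the order IFNγ, KO CAF CM, WT CAF CM, IL4 and not stimulated were called.

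The study asked what Snai1 in CAFs changes in macrophages, which here is the comparison of the 2 CMs. None of the 8 genes was called by limma in WT CAF CM minus KO CAF CM. Of all probe sets, 1.36% were called in either direction. An unadjusted p under 0.05 was found for 2322 of all 22206 probe sets and for 2 of the 8 genes. These were Pycard, with 10.15 and 10.13 in KO CAF CM arrays and 11.00 and 10.74 in WT CAF CM arrays (WT minus KO 0.73, 95% interval 0.24 to 1.22, adjusted p = 0.199), and Casp1, with 15.28 and 15.54 in KO CAF CM arrays and 14.74 and 15.09 in WT CAF CM arrays (WT minus KO -0.50, interval -0.92 to -0.07, adjusted p = 0.369). Pycard was thus the higher in WT CAF CM and Casp1 the higher in KO CAF CM. Their arrays did not overlap, nor did those of Casp4. How often that occurs over all probe sets was not counted, so nothing is read from it. For Mefv the difference WT minus KO was 0.63, with an interval of -0.01 to 1.27 (adjusted p = 0.484), and for Nlrp3 it was -0.13, with an interval of -0.84 to 0.58 (adjusted p = 0.952). For the other 4 genes WT minus KO was 0.31 for Nlrc4 (interval -0.32 to 0.94), -0.24 for Aim2 (-0.65 to 0.18), -0.26 for Casp4 (-0.68 to 0.16) and -0.05 for Gsdmd (-0.49 to 0.40), with adjusted p of 0.744 to 0.980. A p-value above the threshold does not show that the CMs act alike. For Mefv, Nlrp3 and Casp4, the interval limits were smaller in size than the differences from not stimulated cells (2.84 and 3.47 for Mefv). For Casp4 the margin was narrow, with a limit of -0.68 beside a difference of 0.78 with WT CAF CM. For the genes called with neither CM, the intervals are wide beside their differences from not stimulated cells. Leaving out any of the 10 arrays gave 0 called genes each time.

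**Figure D4:**
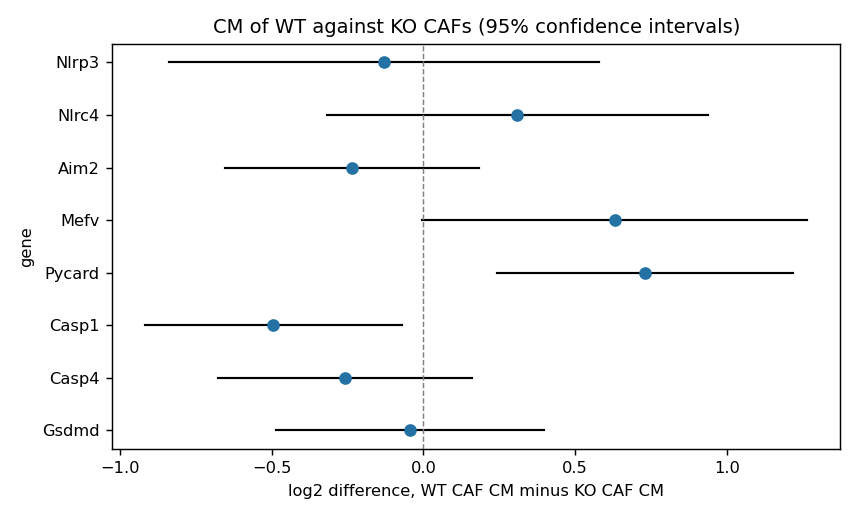
Log2 difference WT CAF CM minus KO CAF CM of the 8 genes (points) with 95% confidence intervals (lines, limma, n = 2 arrays per condition, not adjusted over genes). Positive values mean higher with WT CAF CM. The intervals of Pycard (0.24 to 1.22) and Casp1 (-0.92 to -0.07) leave out 0, and the rest span it.

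Set directly against the cytokines, Mefv was higher with each CM than with IFNγ or IL4, and Aim2, Pycard and Casp4 were lower with each CM than with IFNγ. With KO CAF CM minus IL4, 5 of 8 genes were called (14.8% of all probe sets in either direction): Nlrp3 (3.82), Nlrc4 (1.72), Mefv (3.5) and Casp4 (1.58) were higher with KO CAF CM and Pycard (-1.24) was lower. With WT CAF CM minus IL4, 4 of 8 were called (11%), all higher with WT CAF CM: Nlrp3 by 3.69, Nlrc4 by 2.03, Mefv by 4.13 and Casp4 by 1.32. Against IFNγ, Mefv alone was called higher with each CM, by 3.12 for KO CAF CM and 3.75 for WT CAF CM. Called lower were Aim2 (-1.41), Pycard (-1.59) and Casp4 (-0.91) for KO CAF CM minus IFNγ, and Aim2 (-1.64), Pycard (-0.86), Casp1 (-1.09) and Casp4 (-1.17) for WT CAF CM minus IFNγ. That made 4 of 8 for KO CAF CM (14.1% of all probe sets) and 5 of 8 for WT CAF CM (11.6%). Between the cytokines, IFNγ minus IL4, 5 of 8 were called (12%), and all of these were higher with IFNγ: Nlrp3 (2.97), Nlrc4 (1.11), Aim2 (1.01), Casp1 (0.71) and Casp4 (2.49). These comparisons share arrays with those above.

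Il1b, which encodes a cytokine that caspase-1 matures, was raised by both CMs, whereas Il18 was called with neither. Of 14 measured substrates, antagonists and executioners (16 listed), 4 were called higher with KO CAF CM (Il1a, Il1b, Il1rn and Gsdme). With WT CAF CM 3 were (Il1a, Il1b and Il1rn), and 0 were lower in either. Of all probe sets, KO CAF CM raised 6.83% and lowered 8%, and WT CAF CM raised 4.08% and lowered 4.47%. Il1b read 13.22 and 14.47 with KO CAF CM, 15.17 and 15.79 in WT CAF CM arrays, 5.12 and 5.56 with IFNγ, 5.04 and 4.35 with IL4, and 7.23 and 6.69 in not stimulated cells. Its difference from not stimulated cells was 6.89 with KO CAF CM (SE 0.39, adjusted p = 6.04e-07, limma) and 8.52 with WT CAF CM (SE 0.39, 367-fold, adjusted p = 1.70e-07). Between the 2 CMs, the Il1b difference WT minus KO of 1.64 was not called (adjusted p = 0.0791). Both cytokines lowered Il1b, by log2 differences of -1.62 with IFNγ (adjusted p = 0.0180) and -2.27 with IL4 (adjusted p = 0.00690). With either cytokine, Il1b lay below the array medians, where silent and dim genes look the same. The sizes of these falls are therefore uncertain. The IFNγ call ended without IFNγ replicate 1 (-1.40, adjusted p = 0.138) or not stimulated replicate 1 (-1.35, 0.153), and the IL4 call without IL4 replicate 2 (-1.92, 0.0713) or not stimulated replicate 1 (-2.00, 0.0802).

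Il1a, the alarmin of the same family, had 10.92 and 11.71 with KO CAF CM and 11.31 and 13.94 with WT CAF CM, against 4.75 and 5.92 in not stimulated cells (differences 5.98 and 7.29, limma adjusted p = 2.01e-04 and 7.20e-05). The not stimulated values lie around the array medians, where silent and dim genes look the same, so the sizes of these differences are uncertain. Il1rn, which encodes the IL-1 receptor antagonist, had 14.30 and 15.07 with KO CAF CM and 14.86 and 16.09 with WT CAF CM, against 12.03 and 12.92 in not stimulated cells. Its differences of 2.21 and 3 (adjusted p = 0.0243 and 0.00712) were both lost with trend and robust moderation (adjusted p = 0.149 and 0.0845), and without not stimulated replicate 1 they were 1.77 and 2.56 (0.183 and 0.0784). The first was also lost when KO CAF CM replicate 2 was left out (1.83, 0.152), and the second when WT CAF CM replicate 2 was (2.39, 0.0804). Over all limma alternatives the adjusted p ran between 1.36e-04 and 0.183 for KO CAF CM, and between 2.16e-05 and 0.0845 for WT CAF CM. Il18, the other substrate of caspase-1, gave no call with the CMs (-0.59 with KO CAF CM, adjusted p = 0.188, and -0.33 with WT CAF CM, adjusted p = 0.595). It read 9.44 and 9.41 with KO CAF CM, 9.52 and 9.85 in WT CAF CM arrays, 10.18 and 11.07 with IFNγ, 8.89 and 8.98 with IL4, and 10.10 and 9.92 in not stimulated cells. IL4 lowered it by -1.08 (adjusted p = 0.0435), a call that ended when any of the 8 arrays other than the IFNγ ones was left out, with values of -1.17 to -0.99 and adjusted p up to 0.240. Il18bp, the decoy that binds IL-18, was raised by IFNγ, to 14.82 and 15.17, against 11.10 and 11.31 in not stimulated cells (3.79, adjusted p = 6.28e-07). IFNγ raised 1 of the 14 genes and lowered 3 (Il1b, Ninj1 and Gsdme), and IL4 raised 0 and lowered 4 (Il1b, Il18, Ninj1 and Gsdme). Of all probe sets, IFNγ raised 5.38% and lowered 6.68%, and IL4 raised 1.66% and lowered 2.38%. The IFNγ call of Gsdme ended without IFNγ replicate 1 (-0.86, adjusted p = 0.122) or either not stimulated array (-1.19 and -1.06, 0.0514 and 0.0741). The IL4 call of Ninj1 ended without any IL4 or not stimulated array (-1.11 to -0.85, adjusted p up to 0.175). Genes outside the naming rule are named here because few were called, after their values were seen.

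**Figure D5:**
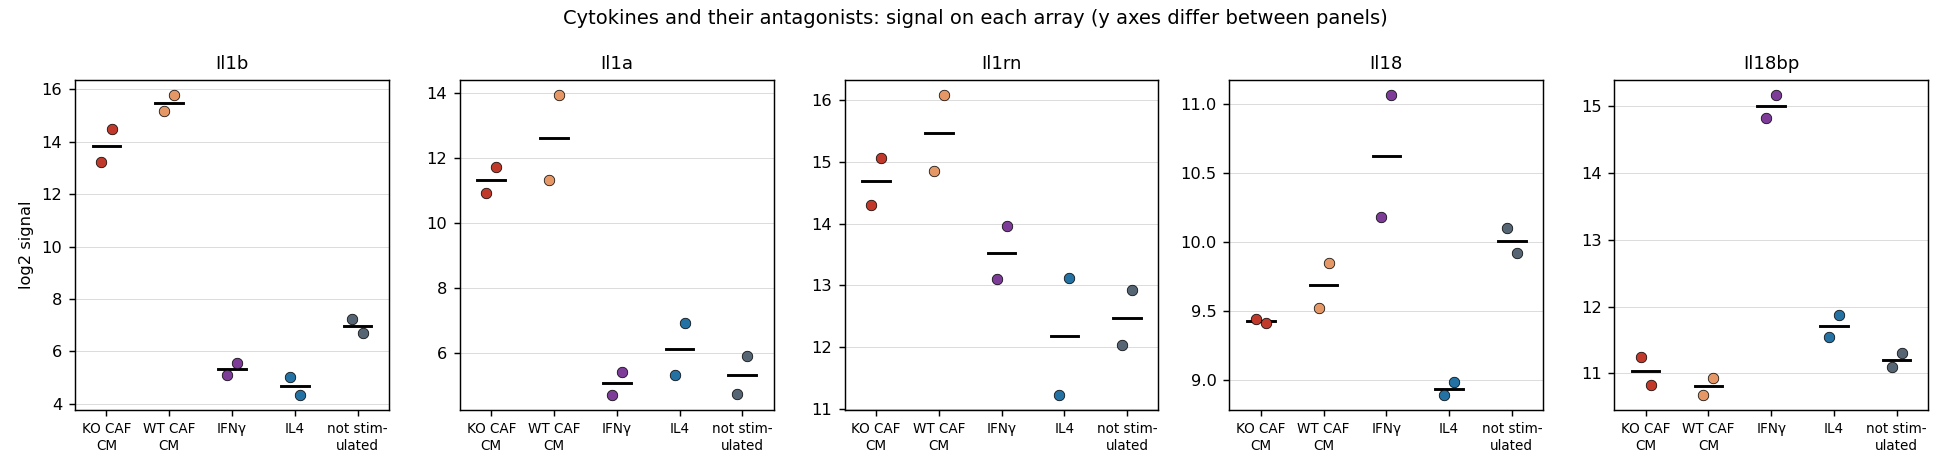
Log2 signal of Il1b, Il1a, Il1rn, Il18 and Il18bp on each of the 10 arrays (points) with the mean of each condition (bars, n = 2); y axes differ between panels. Il1b and Il1a are high in the 4 CM arrays only, and Il18bp is high in the 2 IFNγ arrays.

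Other genes of the pathway were read from lists written from general knowledge, with 65 of 77 genes measured. Among 15 other sensors, KO CAF CM raised 3 and lowered 4, WT CAF CM raised 2 and lowered 2, IFNγ raised 6 and lowered 1, and IL4 called 0. Their medians were -0.10 with KO CAF CM, -0.03 with WT CAF CM, 0.21 with IFNγ and -0.22 with IL4. Over all probe sets the medians were -0.01, -0.03, -0.02 and 0 in the same order. KO CAF CM raised 6.83% of all probe sets and lowered 8%, and WT CAF CM raised 4.08% and lowered 4.47%. IFNγ raised 5.38% of them and lowered 6.68%, and IL4 raised 1.66% and lowered 2.38%. Zbp1, a sensor of Z-form nucleic acids, had 12.97 and 12.81 with KO CAF CM, 12.31 and 12.89 in WT CAF CM arrays and 13.93 and 13.78 with IFNγ, against 10.16 and 10.66 in not stimulated cells. Its differences were 2.48, 2.19 and 3.45 (limma adjusted p = 5.89e-05, 2.35e-04 and 4.46e-06). Nod1, which senses bacterial peptidoglycan, had 9.14 and 8.87 with IFNγ, against 6.03 and 6.08 in not stimulated cells (2.95, adjusted p = 5.67e-05). With KO CAF CM it had 7.84 and 6.70 (1.22, adjusted p = 0.0196), and without KO CAF CM replicate 1 the difference was 0.65 (0.138). That call also ended without not stimulated replicate 1 (1.19, 0.101) or replicate 2 (1.24, 0.0791).

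Nlrp1b, also in the list of other sensors, was lower with the CMs. It read 7.31 and 7.35 with KO CAF CM, 8.63 and 8.60 in WT CAF CM arrays, 10.74 and 11.52 with IFNγ, 9.86 and 9.74 with IL4, and 9.96 and 10.11 in not stimulated cells. Its difference was -2.71 with KO CAF CM (SE 0.24, adjusted p = 1.37e-05, limma) and -1.42 with WT CAF CM (SE 0.24, adjusted p = 0.00251). Of the 15 other sensors, 2 were called between the CMs, where 1.36% of all probe sets were. Nlrp1b was one, higher with WT CAF CM by 1.29 for WT minus KO (limma adjusted p = 0.0229). Naip6 was the other (0.93, adjusted p = 0.0400). Both calls ended without any of the 4 CM arrays, where Nlrp1b gave 1.27 to 1.31 with adjusted p up to 0.111, and Naip6 gave 0.87 to 0.98 with adjusted p up to 0.210. Naip6 lost its call without any of the other 6 arrays too (adjusted p = 0.0515 to 0.0581). With IFNγ, Nlrp1b differed by 1.10 (adjusted p = 0.00898), and without IFNγ replicate 2 by 0.71 (0.0933), while without not stimulated replicate 1 it was 1.02 (0.0741). Nlrp1a and Nlrp1b, like Naip5 and Naip6, are close copies, and probes may read more than 1 of them.

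Among 18 cofactors, channels and regulators, KO CAF CM raised 4 and lowered 3, and WT CAF CM raised 2 and lowered 2. IFNγ raised 7 and lowered 1, and IL4 raised 3 and lowered 4. Between the CMs 1 of 18, Panx1, was called, where 1.36% of all probe sets were. Of all probe sets, KO CAF CM raised 6.83% and lowered 8%, and WT CAF CM raised 4.08% and lowered 4.47%. IFNγ raised 5.38% of them and lowered 6.68%, and IL4 raised 1.66% and lowered 2.38%. Panx1, a channel that releases ATP, had 12.53 and 11.33 with KO CAF CM and 10.33 and 9.88 with WT CAF CM, against 9.47 and 9.41 in not stimulated cells. It was called with KO CAF CM (2.49, limma adjusted p = 4.77e-04) and not with WT CAF CM (0.67, adjusted p = 0.341). The difference between the CMs was called too (WT minus KO -1.83, adjusted p = 0.0266), but it was -1.23 without KO CAF CM replicate 1 (0.132), -2.05 when WT CAF CM replicate 1 was left out (0.0624), -1.60 when its replicate 2 was (0.171), and not called in a fit of the CM arrays alone (0.131). Mlkl, the executioner of necroptosis, rose with KO CAF CM (13.59 and 13.66), WT CAF CM (13.10 and 13.51) and IFNγ (14.67 and 14.66), against 11.68 and 11.78 in not stimulated cells. Pydc3, which encodes a pyrin domain protein of the AIM2-like family, had 14.25 and 14.77 with IFNγ, against 11.52 and 12.23 in not stimulated cells (2.64, adjusted p = 5.42e-04). With IL4 it had 9.44 and 10.74 (-1.79, adjusted p = 0.0201), and without IL4 replicate 1 the difference was -1.14 (0.140) and without not stimulated replicate 2 it was -1.43 (0.164). Gsdme, the pore former cleaved by caspase-3, belongs to the list of substrates, antagonists and executioners. Of the 14 measured there, 1 was called between the CMs, Gsdme, where 1.36% of all probe sets were. It had 8.99 and 8.59 with KO CAF CM and 7.10 and 7.22 with WT CAF CM, against 7.23 and 7.36 in not stimulated cells. It was the higher in KO CAF CM arrays (WT minus KO -1.63, adjusted p = 0.00828), and that ended without KO CAF CM replicate 1 (-1.43, 0.0724) or WT CAF CM replicate 1 (-1.57, 0.0548).

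The guanylate-binding proteins and immunity-related GTPases, which open pathogen vacuoles and expose LPS and DNA to caspase-11 and AIM2, rose most with IFNγ. All 9 measured members (12 listed) were called higher with IFNγ, with a median difference of 5.17. Of all probe sets, IFNγ raised 5.38%, with a median of -0.02. KO CAF CM raised 7 of 9 (median 1.32) and WT CAF CM raised 4 of 9 (median 0.71), with 0 lower in either. Between the CMs, 0 of 9 was called (median of WT minus KO -0.42). Of all probe sets, KO CAF CM raised 6.83% and lowered 8%, and WT CAF CM raised 4.08% and lowered 4.47%. Between the CMs 1.36% of them were called, and IL4 raised 1.66% and lowered 2.38%. IL4 raised 1, Gbp2, and lowered 2, Irgm2 and Igtp. Both of these IL4 calls ended without IL4 replicate 1 (-0.93 for Irgm2 and -0.81 for Igtp, adjusted p = 0.0989 and 0.166) or not stimulated replicate 2 (-0.96 and -1.05, 0.0971 and 0.168), and that of Igtp also without not stimulated replicate 1 (-1.44, 0.0578). Gbp8 had 15.06 and 15.01 with IFNγ, against 7.18 and 6.71 in not stimulated cells, and lay between 6.52 and 7.14 in the 4 CM arrays. Gbp2 had 15.25 and 14.81 with KO CAF CM, 13.75 and 14.34 in WT CAF CM arrays, 18.40 and 18.42 with IFNγ, and 13.08 and 12.48 with IL4, and 11.89 and 10.70 in not stimulated cells. Its IL4 difference of 1.49 (limma adjusted p = 0.0418) was 0.89 without not stimulated replicate 2 (0.258) and also missed the threshold without either IL4 array (1.19 and 1.79, 0.271 and 0.0673) or either IFNγ array (0.0654). Gbp3 had 12.64 and 12.07 with KO CAF CM and 10.90 and 11.42 with WT CAF CM, against 9.89 and 9.89 in not stimulated cells, and 15.83 and 15.78 with IFNγ. Its WT CAF CM difference of 1.27 (adjusted p = 0.0134) fell short of the threshold without WT CAF CM replicate 2 (1.01, 0.136) or either not stimulated array, at 1.27 each (0.0797 and 0.0749).

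Among 9 priming receptors and transcription factors measured (11 listed), KO CAF CM raised 3 and lowered 3, and WT CAF CM raised 3 and lowered 0. IFNγ raised 4 and lowered 2, and IL4 raised 2 and lowered 3. Of all probe sets, KO CAF CM raised 6.83% and lowered 8%, and WT CAF CM raised 4.08% and lowered 4.47%. IFNγ raised 5.38% of them and lowered 6.68%, and IL4 raised 1.66% and lowered 2.38%. Cd14, a coreceptor of LPS, had 15.10 and 15.03 with KO CAF CM and 15 and 15.04 with WT CAF CM, against 14.27 and 14.30 in not stimulated cells. It was 9.94 and 10.07 with IFNγ and 10.60 and 10.82 with IL4, for differences of -4.28 and -3.58 (limma adjusted p = 2.98e-08 and 3.96e-07). The lipoprotein receptor Tlr2 had 14.79 and 14.36 with KO CAF CM, 15.22 and 14.68 in WT CAF CM arrays, 11.37 and 11.86 with IFNγ and 11.06 and 10.21 with IL4, and 13.62 and 13.53 in not stimulated cells. Both receptors were thus above not stimulated cells with the CMs and below them with the cytokines. The CM calls of both depended on single arrays. With KO CAF CM, Tlr2 lost its call without any KO CAF CM, IFNγ or not stimulated array (0.79 to 1.22, adjusted p up to 0.236), and Cd14 without KO CAF CM replicate 1 (0.75, 0.0531) or not stimulated replicate 1 (0.77, 0.0629). With WT CAF CM, Tlr2 lost it without WT CAF CM replicate 1 (1.11, 0.110) or either not stimulated array (1.42 and 1.33, 0.0708 and 0.0850), and Cd14 without any WT CAF CM or not stimulated array (0.72 to 0.76, adjusted p up to 0.126). Irf1, a transcription factor that activates Gbp genes, had 16.15 and 16.13 with IFNγ, against 12.24 and 11.72 in not stimulated cells (4.16, adjusted p = 9.71e-07), and gave -0.15 and -0.33 with the CMs, neither called.

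Over the 10 arrays, the genes whose pattern was most like each of the 8 were found by Pearson's r, given without a test since the points are 2 arrays of each of 5 conditions. They were Dtx2 (0.991) and Clmp (0.988) for Mefv, Dynlt1a (0.987) and Dynlt1b (0.985) for Nlrp3, Slc7a8 (0.973) and Sipa1l2 (0.958) for Nlrc4, and Rnase6 (0.987) and Prr5l (0.982) for Aim2. For the rest they were Gramd1c (0.935) and Ctrl (0.933) for Pycard, Myo18a (0.956) and Ptcd2 (0.951) for Casp1, Oasl1 (0.989) and Slco3a1 (0.989) for Casp4, and Ubac1 (0.944) and Hspa5 (0.927) for Gsdmd. Clmp, for example, had 12.70 and 12.10 with KO CAF CM, 12.43 and 13.72 in WT CAF CM arrays, and 6.78 to 7.88 on the other 6 arrays. Dynlt1a and Dynlt1b are near-identical copies, so they may be 1 signal read by 2 probe sets. Gramd1c (4.20 to 4.91) and Ctrl (4.96 to 6) lay near or below the array medians, where silent and dim genes look the same.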

How the data were processed

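Each of the 10 samples was hybridised to 1 Clariom S array. The deposited values are log2 signals per probe set, normalized by the authors with RMA and given to 2 decimals. The submitters' processing notes name RMA and limma without versions. All sample columns were used, with 0 left out. The values were taken as deposited, and limma 3.58.1 in R 4.3.3 fitted 1 mean per condition to all 10 arrays (5 residual and 6.43 prior degrees of freedom), with Benjamini-Hochberg adjustment over all 22206 probe sets for each comparison. A difference was called at an adjusted p under 0.05. The fit was tested on simulated data. The members and lists were chosen with earlier results of these data known. Named genes were the members, up to 3 genes per pathway list with the largest called difference whose arrays did not overlap, Il1b and Il18, and the 2 genes most correlated with each member. Of 77 pathway genes, 65 were measured, 3 of them through a synonym. Promoters came from RefSeq (GRCm38.p6). Figures used Python 3.11.15 and matplotlib 3.10.9. Alternatives changed the filter, normalization, arrays in the fit, weights, moderation, threshold, test and pairing. The number of arrays limits the precision.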

Additional observations from a re-analysis of the deposited data

How the results depend on the processing

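The 8 genes gave 40 differences in 5 comparisons and 840 values under the alternatives. Of these, 789 kept their direction and their side of the threshold, 36 lost a call, 6 gained one and 9 changed sign, none of which was called. Leaving out 1 array gave 3 to 3 called genes with KO CAF CM, 1 to 3 with WT CAF CM, 4 to 5 with IFNγ, 1 to 3 with IL4 and 0 to 0 between the CMs. The study analysed its arrays with Transcriptome Analysis Console software, and Student's t-test is named in its general statistics. Without adjustment, that t-test called 3, 2, 5, 5 and 1 genes in the same order as above. After Benjamini-Hochberg adjustment it called 0 in each of the 5 comparisons. Signs changed for Nlrc4 with IFNγ (0.0072 under quantile normalization, and -0.29 to 0.06 when arrays were left out), Casp1 with WT CAF CM (-0.26 to 0.10), Pycard with KO CAF CM (-0.10 to 0.15), and, for WT minus KO, Nlrp3 (-0.45 to 0.19), Nlrc4 (-0.075 to 0.70) and Gsdmd (-0.26 to 0.17). The causes were not tested.

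Over all probe sets, leaving out 1 array gave 2003 to 3184 calls with KO CAF CM, against 3292 from all arrays, 1021 to 1945 with WT CAF CM (1900), 1642 to 2702 with IFNγ (2679), 418 to 913 with IL4 (898), and 142 to 269 between the CMs (302, and 104 in a fit of the CM arrays alone). Student's t-test without adjustment gave 3591, 2970, 3632, 2279 and 1554 calls in the same order, and 13, 4, 13, 2 and 7 after adjustment.

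The titles give arrays of different conditions the same number. With this replicate block in the model, 3, 3, 5, 3 and 0 of the 8 genes were called in the same order, as without it. Over all probe sets, the block gave 3431, 2092, 2823, 1100 and 406 calls in the same order, against 3292, 1900, 2679, 898 and 302 without it. Same-numbered arrays deviated together with correlations of -0.049 to 0.19 over 10 pairs of conditions, 3 of them over 0.1. The number was left out of the main model since the study's methods do not use it. Whether it pairs the arrays is not in the labels. For Il1rn, whose replicate 2 was above replicate 1 in all 5 conditions, the block gave an adjusted p of 1.36e-04 for KO CAF CM and 2.16e-05 for WT CAF CM, against 0.0243 and 0.00712 without it. Another probe set per gene was not tried, since each of the 8 genes has 1.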
